A study of Homo sapiens with 16 samples.

Results

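The small nucleolar RNAs (snoRNAs) described here are the C/D box snoRNAs carried in the introns of SNHG1, a long non-coding host gene on chromosome 11. The members were chosen by name: SNORD22, SNORD25, SNORD26, SNORD27, SNORD28, SNORD29, SNORD30 and SNORD31. Of these 8 members, 6 had a row among the 413 snoRNAs of the expression table, and SNORD29 and SNORD31 were not analysed here. All 6 passed the filter on low values, which 357 of the 413 snoRNAs passed.

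Small RNA was sequenced from PC3 cells, a prostate cancer line, and MDA-MB-231 cells, a breast cancer line, and from the extracellular vesicles (EVs) that each line released into its medium. EVs were isolated by an aqueous two-phase system of polyethylene glycol and dextran followed by dextranase (ATPS), by ultracentrifugation (UC), or with the Qiagen exoRNeasy column kit. Every line and material had 2 libraries, giving 16 libraries in 8 groups. Both lines were labelled wild type and untreated, and no source says whether the libraries within a group were separate cultures, so each p-value reflects library spread that may be only technical. RNA from cells, ATPS EVs and UC EVs was extracted with TRIzol, whereas the exoRNeasy kit used its own columns, so that EV isolation and RNA extraction cannot be told apart in comparisons with the kit. EV donor cells were kept without serum before the medium was collected. The paper proposes that ATPS also takes up cell-free RNA. It also reports that RNase on the medium of a PC3-derived line left the small RNA of EVs unchanged. Its methods describe no RNase step for the sequenced samples. RNA inside vesicles and other RNA of the medium therefore cannot be told apart, and EVs here means the isolated preparations.

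C/D box snoRNAs are short nucleolar RNAs that are cut out of introns and bind the proteins fibrillarin, NOP56, NOP58 and SNU13. Most of them pair with ribosomal RNA (rRNA) and direct the methylation of a ribose there, while SNORD22 is known for a role in small-subunit rRNA processing. The spliced SNHG1 transcript encodes no known protein, and its introns are the source of the snoRNAs.

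On GRCh38, SNHG1 lies at chr11:62851978-62855953 on the minus strand, with 11 exons and 10 introns in its canonical transcript. Each member lies in an intron of its own. In the order of transcription, SNORD25 lies in intron 1, SNORD26 in intron 2, SNORD27 in intron 3, SNORD28 in intron 4, SNORD29 in intron 6, SNORD30 in intron 7, SNORD31 in intron 8 and SNORD22 in intron 9. Between the snoRNA and the end of its intron lay 69 to 75 bases in 6 of the 8 members, 98 bases for SNORD25 and 210 bases for SNORD31. The 6 measured members are shown 5′ to 3′ from the reference genome, because the sequenced reads are fragments of these RNAs and the members differ in length and in their boxes. Capitals mark a C box written as TGATGA within the first 15 bases and a D box written as CTGA within the last 15 bases.
SNORD25: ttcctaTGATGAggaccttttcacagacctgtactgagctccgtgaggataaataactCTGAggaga
SNORD26: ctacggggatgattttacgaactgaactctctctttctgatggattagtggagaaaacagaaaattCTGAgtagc
SNORD27: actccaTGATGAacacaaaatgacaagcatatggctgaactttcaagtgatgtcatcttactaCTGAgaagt
SNORD28: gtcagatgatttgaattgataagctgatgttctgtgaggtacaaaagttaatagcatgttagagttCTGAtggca
SNORD30: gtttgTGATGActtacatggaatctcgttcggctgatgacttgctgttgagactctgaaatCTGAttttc
SNORD22: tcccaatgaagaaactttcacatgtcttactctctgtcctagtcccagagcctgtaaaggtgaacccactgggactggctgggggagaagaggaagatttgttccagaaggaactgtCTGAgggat

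SNORD25 (chr11:62855565-62855631) was 67 bases long, SNORD26 (chr11:62855292-62855366) 75 bases, SNORD27 (chr11:62855012-62855083) 72 bases, SNORD28 (chr11:62854621-62854695) 75 bases and SNORD30 (chr11:62853663-62853732) 70 bases. SNORD22 (chr11:62852910-62853035), at 126 bases, was the longest of the 8. The D box letters were found in all 8 members and in 87.2% of the 313 annotated genes named SNORD. The exact C box letters were found in SNORD25, SNORD27, SNORD29, SNORD30 and SNORD31, and in 62.0% of those 313 genes. A search of the strand antisense to rRNA for perfect matches of at least 10 bases found 12 bases of SNORD25 and 12 bases of SNORD27 in small-subunit rRNA. The same search found 13 bases of SNORD26 and 12 bases of SNORD30 in large-subunit rRNA, and no run of that length for SNORD22 or SNORD28. A further annotated gene named SNORD22 lies in SNHG1 at chr11:62854161-62854285, with 65.1% identity and no 18-base word in common, so the row named SNORD22 may hold reads of either. Further genes named SNORD27 (chr13:21139886-21139957) and SNORD30 (chrX:114017033-114017102) lie outside SNHG1. The members SNORD27 and SNORD30 had no 18-base word in common with other snoRNA genes, but rows of these names may likewise hold reads of either gene. SNORD28 had 15 of its 58 words of 18 bases in common with other snoRNA genes. Reads they share may be split among them or counted in full for each, so its row may also hold reads of those genes.

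Levels are given as in the tables under the name TPM, which here means the share of all reads assigned to snoRNAs, scaled to a common total, with no correction for length. The snoRNA reads per library ranged from 16635 in MDA-MB-231 cell replicate 2 to 10849128 in PC3 cell replicate 2, and EV libraries held 41519 to 400429. TPM is a share of the snoRNA reads, so a lower share and fewer RNA molecules per cell or vesicle cannot be told apart. As a check of the labels, the reads of 3 epithelial microRNAs, of 5 listed, summed to 6 to 11 in PC3 cells, 0 to 6 in MDA-MB-231 cells and 0 to 2 in EVs. Of 5 microRNAs of blood cells, miR-486-5p alone had a row, with 0 to 12 reads per library. These counts were too low to tell the lines apart.

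The 6 members together made up a steady share of the snoRNA reads. Their sum was 12.5% to 14.2% in the 4 cell libraries and 11.3% to 16.5% in the 12 EV libraries, and the highest value was that of MDA-MB-231 UC replicate 1. SNORD26 and SNORD30 supplied 82.8% to 91.2% of the members' reads. SNORD26 ranked between 3 and 4 among the 413 snoRNAs in every library, and SNORD30 between 3 and 6.

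The members lie in 1 host gene, and yet the rows of their names differed widely in level. Per base of snoRNA length, SNORD30 had a median of 788 TPM per base over the 16 libraries and SNORD26 a median of 767 TPM per base. The ranges of these 2 members overlapped, at 471 to 922 and 537 to 1144 TPM per base. SNORD25 had a median of 141 TPM per base, with a range of 92.4 to 231, and SNORD27 a median of 71.9 TPM per base, with a range of 49.6 to 94.2. SNORD25 was above SNORD27 in every library, by a ratio of TPM between 1.30 and 2.91. SNORD28 was far lower, at 0.930 to 4.18 TPM per base, and the TPM of SNORD30 was 146 to 834 times that of SNORD28 in the same library. SNORD22 had 0 to 0.183 TPM per base in cells and 1.57 to 26.4 TPM per base in EVs. Per base it lay below SNORD28 in all 4 cell libraries and above it in 9 of the 12 EV libraries, the exceptions being both PC3 UC libraries and PC3 ATPS replicate 2. Without division by length, SNORD22 was above SNORD28 in both PC3 UC libraries, at 198 against 119 TPM and 234 against 202 TPM. In PC3 ATPS replicate 2 it stayed below, at 241 against 313 TPM. The reads are short fragments, so TPM per base does not give the number of RNA molecules. Its TPM per base lay below that of SNORD25, SNORD26, SNORD27 and SNORD30 in all 16 libraries.

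**Figure D1:**
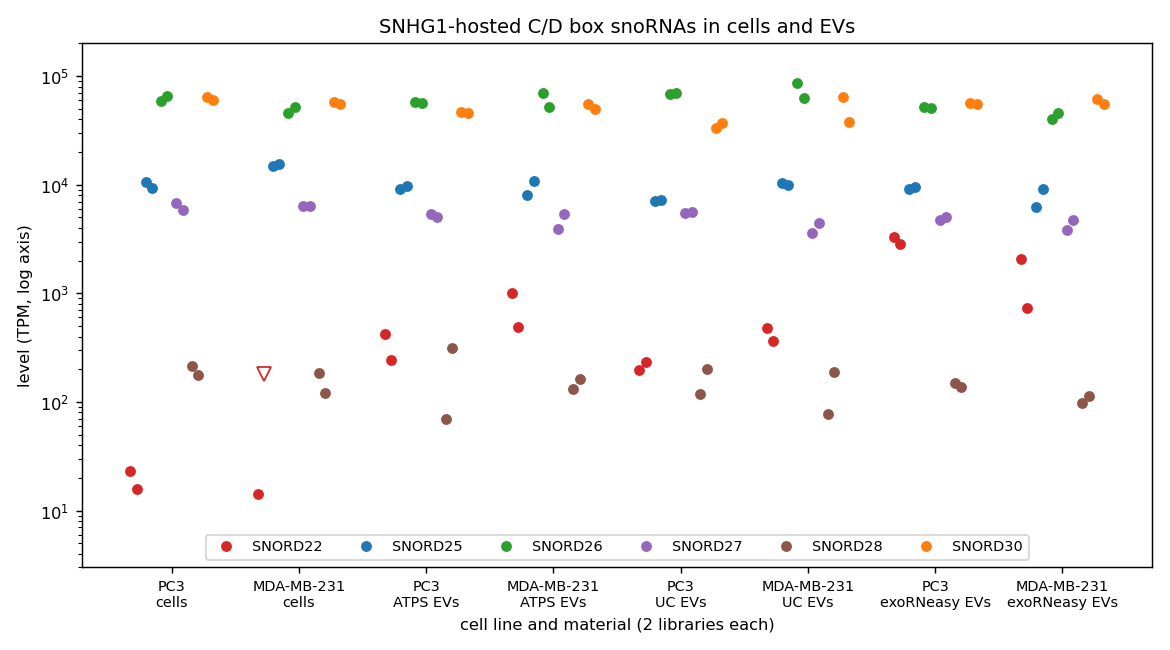
Level of each measured SNHG1-hosted snoRNA in each library, in TPM on a log axis, by cell line and material with 2 libraries each. The open triangle is the level of 3 reads in MDA-MB-231 cell replicate 2, where SNORD22 had 0 reads. SNORD26 and SNORD30 lie between 32967 and 85828 TPM throughout, and SNORD22 lies at or below 23.1 TPM in cells and at 198 to 3331 TPM in EVs.

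The first comparison asked how the snoRNA content of the EV preparations stood against that of the donor cells. SNORD22 rose in EVs of both lines. In cells it had 23.1 and 15.8 TPM in PC3 and 14.4 and 0 TPM in MDA-MB-231. The value of 0 came from 0 of 16635 reads, which allows up to 180 TPM, a limit of 3 reads that covers counting error only. In PC3 EVs SNORD22 had 418 and 241 TPM after ATPS, 198 and 234 TPM after UC, and 3331 and 2865 TPM after exoRNeasy. In MDA-MB-231 EVs it had 1005 and 493 TPM after ATPS, 482 and 366 TPM after UC, and 2081 and 729 TPM after exoRNeasy. All 12 EV libraries lay above the measured level of all 4 cell libraries. The lowest MDA-MB-231 EV library, at 366 TPM, also lay above the upper limit of 222 TPM in the empty cell library. PC3 UC replicate 1, at 198 TPM, did not lie above that limit. The share of all snoRNAs tested that separated without overlap was not counted, here or in the comparisons below.

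The mean of SNORD22 in PC3 EVs was 330 TPM after ATPS, 216 TPM after UC and 3098 TPM after exoRNeasy. Over these 6 libraries the mean was 1214 TPM, and the SD of 1468 TPM spans the methods and is not replicate spread. In PC3 cells the mean was 19.4 ± 5.16 TPM (SD, n = 2), a 62.6-fold difference from the mean over all methods. In MDA-MB-231 EVs the means were 749 TPM after ATPS, 424 TPM after UC and 1405 TPM after exoRNeasy. Over these 6 libraries the mean was 859 TPM (SD across methods 640 TPM), which was 59.9 times the level in cell replicate 1. It was 4.77 times the level of 3 reads in cell replicate 2, and that level is below the exact upper limit there. Tests used limma on log2(TPM + 1) across the 357 snoRNAs, with Benjamini-Hochberg adjustment and calls at an adjusted p under 0.05. The log2 difference between EVs and cells over both lines was 6.20 (SE 0.54, adjusted p = 2.382e-07), the 11th highest of the 357. It was 4.89 in PC3 (SE 0.76, adjusted p = 0.00028) and 7.51 in MDA-MB-231 (SE 0.76, adjusted p = 1.291e-06). Without MDA-MB-231 cell replicate 2, the MDA-MB-231 value was 5.54 (adjusted p = 6.169e-07). SNORD22 was called in all 27 alternatives of each of these 3 comparisons.

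**Figure D2:**
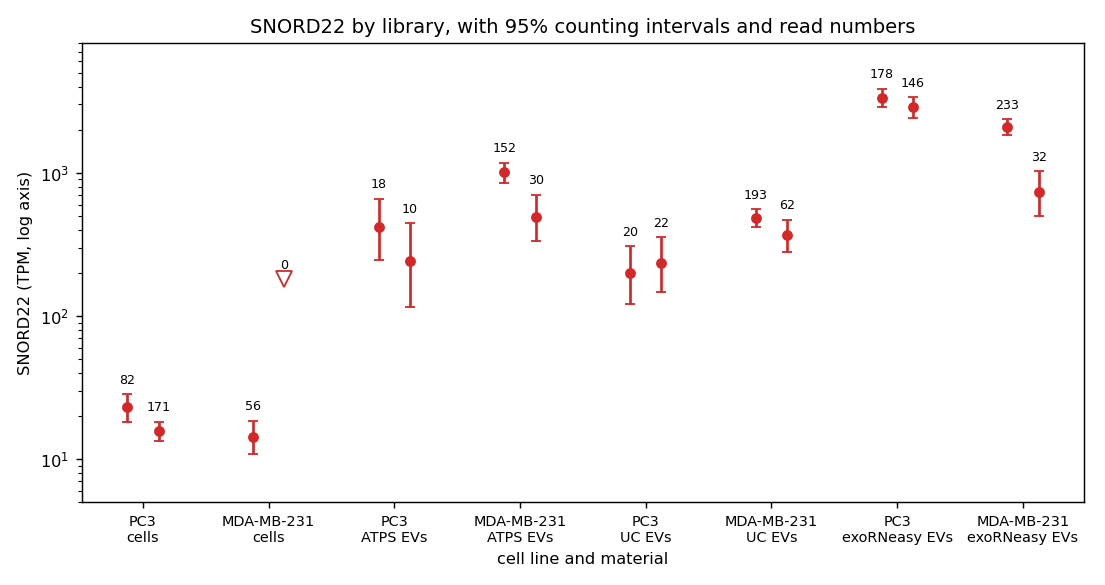
SNORD22 by library in TPM on a log axis, with exact 95% binomial intervals for counting error and the number of reads printed above each point. The open triangle is the 180 TPM that 3 reads would give in the library with 0 reads, where the exact upper limit is 222 TPM. The EV libraries rest on 10 to 233 reads and sit between 198 and 3331 TPM, above the measured level of every cell library.

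SNORD25 and SNORD27, which pair with small-subunit rRNA, fell in EVs over both lines. SNORD25 had 10590 and 9385 TPM in PC3 cells and 14794 and 15509 TPM in MDA-MB-231 cells. Its range was 7144 to 9755 TPM in the 6 PC3 EV libraries (median 9142) and 6188 to 10819 TPM in the 6 MDA-MB-231 EV libraries (median 9536). The EV and cell libraries overlapped in PC3 and did not overlap in MDA-MB-231. The log2 difference was -0.49 over both lines (SE 0.13, adjusted p = 0.00554), -0.21 in PC3 (adjusted p = 0.526) and -0.76 in MDA-MB-231 (adjusted p = 0.00251). The difference between the lines in this effect was 0.55 (SE 0.25, adjusted p = 0.143). With quantile normalization the adjusted p was 0.156 over both lines and 0.0621 in MDA-MB-231.

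SNORD27 had 6783 and 5805 TPM in PC3 cells and 6391 and 6432 TPM in MDA-MB-231 cells. It ranged from 4716 to 5636 TPM in PC3 EVs (median 5224) and from 3571 to 5319 TPM in MDA-MB-231 EVs (median 4197). All 12 EV libraries lay below all 4 cell libraries, a separation whose share among all snoRNAs tested was not counted. The log2 difference was -0.43 over both lines (SE 0.13, adjusted p = 0.0156), -0.27 in PC3 (adjusted p = 0.385; DESeq2 -0.32, adjusted p = 0.0134; centring -0.70, adjusted p = 0.0138) and -0.59 in MDA-MB-231 (SE 0.19, adjusted p = 0.0177). The call over both lines was lost without PC3 cell replicate 1 (-0.37, adjusted p = 0.117), without MDA-MB-231 cell replicate 1 (adjusted p = 0.0527) and without MDA-MB-231 cell replicate 2 (adjusted p = 0.0688). The MDA-MB-231 call was lost without cell replicate 1 (adjusted p = 0.0968) or cell replicate 2 (adjusted p = 0.128), and without UC replicate 1 and cell replicate 2 together (adjusted p = 0.11), an omission chosen after seeing the data. limma without its trend and robust options called SNORD27 neither over both lines (adjusted p = 0.0586) nor in MDA-MB-231 (adjusted p = 0.0633).

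SNORD26 and SNORD30, which pair with large-subunit rRNA, had the highest levels, and limma called neither between EVs and cells. SNORD30 had 63581 and 60784 TPM in PC3 cells and 32967 to 56106 TPM in PC3 EVs (median 46400), with no overlap. In MDA-MB-231 it had 57679 and 54764 TPM in cells and 37856 to 64548 TPM in EVs (median 55314), with overlap. Its log2 difference over both lines was -0.27 (SE 0.12, adjusted p = 0.0709), and this passed the threshold without MDA-MB-231 UC replicate 1 (-0.34, adjusted p = 0.0012) or replicate 2 (-0.21, adjusted p = 0.021). SNORD30 was also called lower over both lines by edgeR (-0.55, adjusted p = 0.0098), with quantile normalization (-0.28, adjusted p = 0.0187) and with centring (-1.02, adjusted p = 3.959e-05), but not by DESeq2. In PC3 alone it was -0.47 (adjusted p = 0.06), and leaving out the same 2 MDA-MB-231 libraries in turn gave adjusted p = 0.00263 and 0.0025, through the spread that all groups share. In PC3 it was called by edgeR (-0.74, adjusted p = 0.02) and with centring (-0.90, adjusted p = 0.00689).

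SNORD26 had 58533 and 65428 TPM in PC3 cells and 46052 and 51698 TPM in MDA-MB-231 cells. Its EV libraries ran from 50430 to 70067 TPM in PC3 (median 57529) and from 40273 to 85828 TPM in MDA-MB-231 (median 57690). The groups overlapped in both lines. The log2 difference was 0.08 (SE 0.11, adjusted p = 0.562), and it turned to -0.67 (adjusted p = 0.00062) when each library was centred on the 138 snoRNAs with reads in every library. SNORD28, known as a guide for small-subunit rRNA, had 120 to 213 TPM in cells and 69.7 to 313 TPM in EVs, on 3 to 32 reads per EV library. Its log2 difference was -0.32 with a 95% interval of -1.20 to 0.55, and limma did not call it. It was called lower over both lines by edgeR (-0.77, adjusted p = 0.0223), with centring (-1.07, adjusted p = 0.0423) and with quantile normalization (-2.18, adjusted p = 0.00093), and in MDA-MB-231 by edgeR (-1.02, adjusted p = 0.0384) and with quantile normalization (-2.81, adjusted p = 0.00202).

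The members' calls stood beside a background in which many snoRNAs differed. Over both lines 1 of the 6 members was higher in EVs and 2 were lower, against 38.1% and 6.44% of all 357 snoRNAs. In PC3 1 member was higher and 0 lower by limma, against 18.5% and 2.24%, and 2 members had an unadjusted p under 0.05, namely SNORD22 and SNORD30. On the recovered reads edgeR called SNORD30 lower there and DESeq2 called SNORD27. In MDA-MB-231 1 member was higher and 2 were lower, against 41.2% and 5.32%. The median log2 difference over both lines was -0.30 for the members and 0.95 for all snoRNAs tested. Centring lowered that overall median by 0.75, and all 5 members other than SNORD22 were then called lower. The overall calls of 136 higher and 23 lower became 95 and 82 with centring and 62 and 87 with quantile normalization. The corresponding splits were 66 and 8, 53 and 46, and 40 and 28 in PC3, and 147 and 19, 105 and 72, and 60 and 82 in MDA-MB-231.

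**Figure D3:**
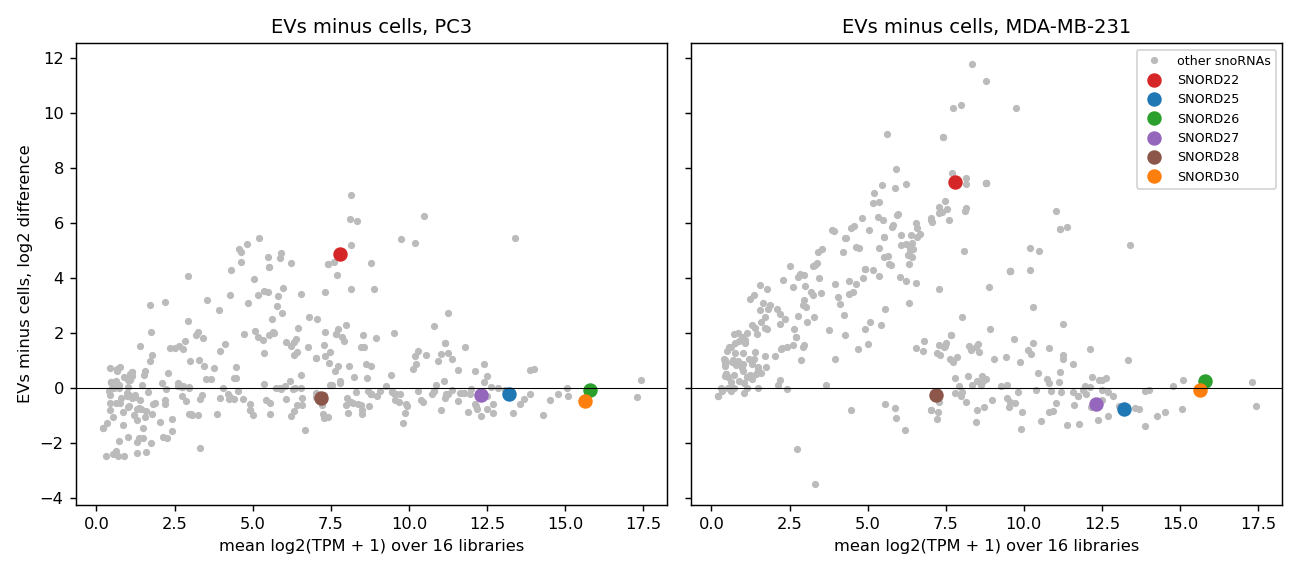
Difference between EVs and cells against the mean level for all 357 snoRNAs tested, in PC3 (left) and MDA-MB-231 (right), both axes on the log2(TPM + 1) scale. Grey points are other snoRNAs and coloured points the 6 members. SNORD22 lies at 4.89 and 7.51, while the other 5 members lie between -0.76 and 0.24.

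Other snoRNA families were counted in the same way. Of 10 listed snoRNAs of GAS5, another snoRNA host gene, 4 had a row and 0 were called between EVs and cells over both lines by limma (median log2 difference 0.63). All 4 listed snoRNAs of the ribosomal protein gene RPL13A were tested, and 2 were higher (median 0.95). The remaining 198 snoRNAs of the C/D class gave 68 higher and 21 lower calls (median 0.22). Among 133 H/ACA box snoRNAs, which guide pseudouridylation, 59 were higher and 0 lower by limma (median 1.99).

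Whether the effect of EVs against cells differed between the lines was tested directly. By limma 0 of the 6 members were called in either direction, against 2.52% of all snoRNAs with the larger value in PC3 and 14.6% with the larger value in MDA-MB-231. SNORD22 and SNORD25 had an unadjusted p under 0.05. DESeq2 called 1 member, with the larger value in PC3, and edgeR called 0. The difference for SNORD22 was -2.62 (SE 1.08, adjusted p = 0.11). It was -4.59 (adjusted p = 9.97e-05) without MDA-MB-231 cell replicate 1, which leaves the library with 0 reads alone, and -0.65 (adjusted p = 0.678) without replicate 2. The overall split of 9 and 52 calls was 27 and 46 with centring and 21 and 26 with quantile normalization.

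The next comparisons addressed the isolation method. UC and exoRNeasy EVs differed in 3 members. SNORD26 had 68074 and 70067 TPM in PC3 UC EVs and 85828 and 62912 TPM in MDA-MB-231 UC EVs. After exoRNeasy it had 52045 and 50430 TPM in PC3 and 40273 and 45865 TPM in MDA-MB-231. All 4 UC libraries lay above all 4 exoRNeasy libraries, with means of 71720 ± 9877 and 47153 ± 5281 TPM (SD over 4 libraries each, from both lines). The share of all snoRNAs separated in this way was not counted. The log2 difference was 0.60 (SE 0.13, adjusted p = 0.00975), and it passed the threshold in 22 of 27 alternatives. Centring, quantile normalization, edgeR, DESeq2 and limma without its trend did not call it, at adjusted p = 0.177, 0.29, 0.112, 0.182 and 0.083.

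SNORD30 went the other way. It had 32967 and 36864 TPM in PC3 UC EVs and 64548 and 37856 TPM in MDA-MB-231 UC EVs, against 56106, 55492, 60972 and 55758 TPM in the 4 exoRNeasy libraries. MDA-MB-231 UC replicate 1 lay above the exoRNeasy libraries and the other 3 UC libraries lay below them. The log2 difference was -0.46 (SE 0.14, adjusted p = 0.049). It passed the threshold in 10 of 27 alternatives, and leaving out single libraries in turn gave adjusted p up to 0.152, the highest without PC3 UC replicate 1. Without MDA-MB-231 UC replicate 2 the value was -0.27 (adjusted p = 0.0789).

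The ratio of SNORD26 to SNORD30, the TPM of the first divided by that of the second, put these changes side by side. It was 2.06 and 1.90 in PC3 UC EVs and 1.33 and 1.66 in MDA-MB-231 UC EVs. After exoRNeasy it was 0.928 and 0.909 in PC3 and 0.661 and 0.823 in MDA-MB-231. In cells it was 0.921 and 1.08 in PC3 and 0.798 and 0.944 in MDA-MB-231, and in ATPS EVs it was 1.24, 1.24, 1.28 and 1.05. The UC libraries lay above all other libraries in this ratio, with the lowest UC value, 1.33, close to the highest ATPS value, 1.28. The exoRNeasy libraries all lay below 1. The ratio was not a planned comparison, and it joins 2 members that differed in opposite directions between UC and exoRNeasy. Its separation of these methods is therefore no separate result, and other pairs of snoRNAs were not counted.

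**Figure D4:**
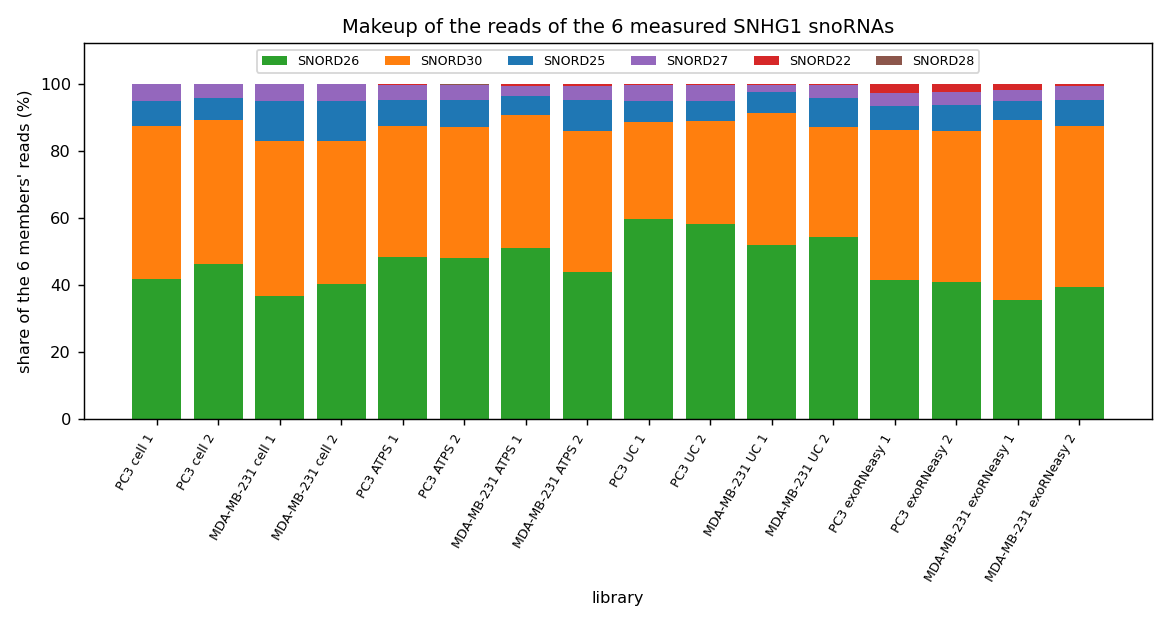
Share of each member in the reads of the 6 measured SNHG1-hosted snoRNAs, in percent, 1 stacked bar for each of the 16 libraries. SNORD26 takes 35.5% to 59.7% and is highest in the PC3 UC libraries, and SNORD22 reaches 2.66% in an exoRNeasy library of PC3.

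SNORD22 fell in UC EVs relative to exoRNeasy EVs. The 4 UC libraries had 198 to 482 TPM and the 4 exoRNeasy libraries 729 to 3331 TPM, with no overlap, a separation not counted over all snoRNAs. The mean after exoRNeasy was 14.4 times that after UC in PC3 and 3.31 times in MDA-MB-231. The log2 difference between UC and exoRNeasy was -2.69 (SE 0.66, adjusted p = 0.0201), the lowest of all 357 snoRNAs. It was lost on leaving out PC3 UC replicate 1 or 2 (adjusted p = 0.0829 and 0.0545), PC3 exoRNeasy replicate 1 or 2 (0.0774 and 0.0603), MDA-MB-231 UC replicate 2 (0.0571) or MDA-MB-231 exoRNeasy replicate 1 (0.0746), with values between -2.32 and -2.75. In all, 1 of 6 members was higher after UC and 2 were lower, against 10.1% and 3.64% of all snoRNAs. The overall split of 36 and 13 calls was 17 and 19 with centring and 26 and 19 with quantile normalization.

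Comparisons with ATPS gave fewer calls. Between ATPS and UC EVs limma called 0 of 357 snoRNAs, 0% in each direction, and hence 0 members, while 52 snoRNAs and 0 members had an unadjusted p under 0.05. DESeq2 called 9 snoRNAs and edgeR 0, and neither called a member. SNORD22 had a log2 difference of 0.65 with a 95% interval of -0.77 to 2.07, and SNORD26 one of -0.27 with an interval of -0.55 to 0.01. Between ATPS and exoRNeasy EVs limma called 0 members, against 1.96% of snoRNAs higher and 1.4% lower, and SNORD22 and SNORD26 had an unadjusted p under 0.05. SNORD22 had a log2 difference of -2.04 there (SE 0.66, adjusted p = 0.15). edgeR (adjusted p = 0.00019) and DESeq2 (adjusted p = 0.00045) called it lower after ATPS, as did limma without MDA-MB-231 cell replicate 1 (adjusted p = 0.00196) or replicate 2 (adjusted p = 0.00184), through the spread that all groups share. The PC3 ATPS libraries lay below both PC3 exoRNeasy libraries, whereas in MDA-MB-231 ATPS replicate 1 lay above exoRNeasy replicate 2.

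**Figure D5:**
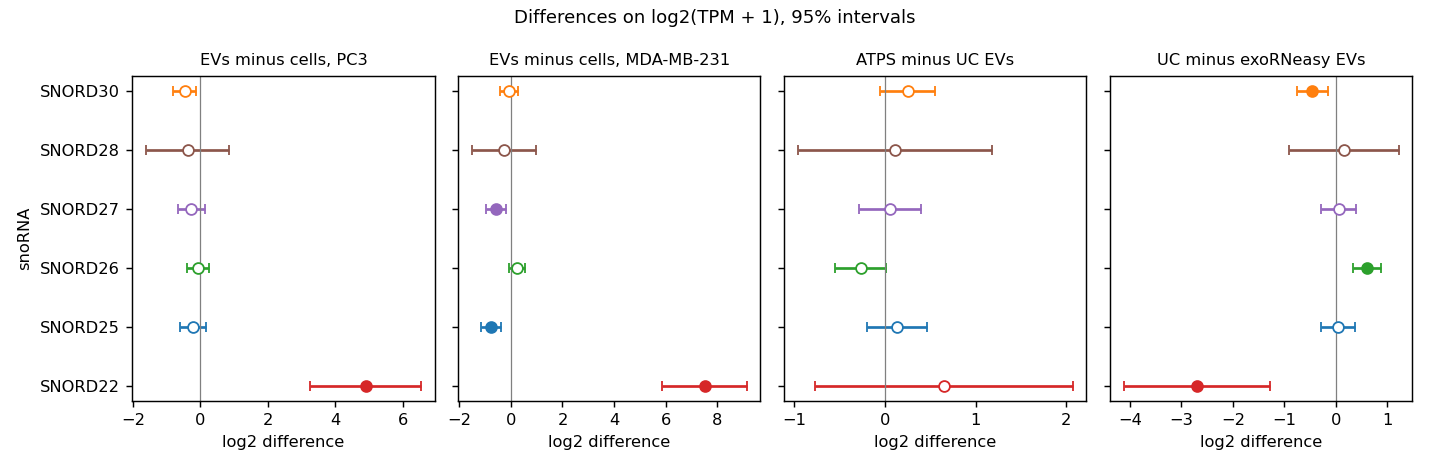
Log2 differences of the 6 members with 95% intervals, on the log2(TPM + 1) scale, for EVs minus cells in each line, ATPS minus UC EVs and UC minus exoRNeasy EVs. Filled points have an adjusted p under 0.05 by limma and open points do not. The horizontal scale differs between the panels, and SNORD22 has the widest range, from -2.69 to 7.51.

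Finally, the lines were compared within each material. In cells limma called 0 members between PC3 and MDA-MB-231, against 20.2% of snoRNAs higher in PC3 and 2.24% lower, and SNORD22 and SNORD25 had an unadjusted p under 0.05. SNORD25 had a mean of 9987 ± 852 TPM in PC3 cells and 15152 ± 506 TPM in MDA-MB-231 cells (SD, n = 2 each), with no overlap. Its log2 difference was -0.60 (SE 0.22, adjusted p = 0.0602). edgeR (adjusted p = 0.024) and DESeq2 (adjusted p = 7.301e-06) called it lower in PC3, and so did limma without MDA-MB-231 ATPS replicate 1 or 2 (adjusted p = 0.0405 and 0.0406) or exoRNeasy replicate 1 or 2 (0.0236 and 0.0232). In EVs limma called 0 members, against 18.2% of snoRNAs higher in PC3 and 15.1% lower. SNORD27 alone had an unadjusted p under 0.05, with a log2 difference of 0.29 (adjusted p = 0.107), and edgeR and DESeq2 each called 1 member, SNORD30, lower in PC3. The overall splits were 72 and 8 in cells, 44 and 34 with centring and 41 and 36 with quantile normalization, and 65 and 54, 48 and 72, and 70 and 63 in EVs.

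Across all 16 libraries, 5 of the 6 members varied less than most snoRNAs. The SD of log2(TPM + 1) was 0.27 for SNORD27, 0.28 for SNORD26, 0.29 for SNORD30, 0.34 for SNORD25 and 0.56 for SNORD28, beside a median of 1.82 over the 357 snoRNAs. It was 3.17 for SNORD22. The steadiest pair was SNORD25 and SNORD27, from introns 1 and 3, whose log2 ratio had an SD of 0.31, and the pairs without SNORD22 reached an SD of 0.68. Pairs with SNORD22 had an SD of 3.20 to 3.41. SNORD25, SNORD26, SNORD27 and SNORD30 had mean log2(TPM + 1) levels of 12.3 to 15.8, whereas the 357 snoRNAs include many of low level. A few reads move the log2 value of such low snoRNAs, and spreads were not compared at like level. Depth differed between the libraries too, and the parts of level and depth in these spreads were not tested. Among 275 other snoRNAs with a mean of at least 10 TPM, 3 kept the steadiest difference from the members' mean log2(TPM + 1). They were SNORD18C, SNORD45A and SNORD10, with an SD of the difference of 0.42, 0.44 and 0.44 over 16 libraries. That mean includes SNORD22.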

How the data were processed

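Small RNA libraries (NEBNext kit, NextSeq) of 2 cell lines and their EVs were used, 16 libraries in 8 groups named from their titles. Libraries titled VC were taken as the UC EVs, since the other titles match the remaining materials. Per the study's methods, the authors trimmed reads on quality, kept short reads of microRNA-like length, aligned them with STAR to hg38, weighting multimapping reads, and annotated them with COMPSRA. The authors converted read counts to values they named TPM, deposited per RNA class, which are CPM in kind. In every snoRNA library 100% of the values were whole multiples of 1 read, within 0.1 read, with no length term. The reads recovered in this way gave 16635 to 10849128 snoRNA reads per library. Some rows of related genes, such as SNORD62A and SNORD62B, had the same mean log2(TPM + 1), 7.68 each. Shared reads may therefore count in more than 1 row, and more than once in the total. The microRNA table was used for markers only and the circular RNA table was not used.

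Analysis of log2(TPM + 1) used limma 3.58.1 (trend and robust), on snoRNAs with at least 1 TPM in at least 2 libraries, with 8 group means, 9 contrasts and Benjamini-Hochberg adjustment over 357 snoRNAs. On this scale the pseudocount understates changes of low snoRNAs in deep libraries, and where a shallow library has 0 reads it can overstate them, since 1 read there is worth up to 60.1 TPM. Alternatives were other pseudocounts, filters and scalings, edgeR 4.0.16 and DESeq2 1.42.0 on recovered reads, a replicate block, and each library left out. Scripts were tested on simulated data. Intervals are exact binomial at 95% and cover counting error only, since the reads carry no molecular identifiers. Named snoRNAs were all members and the 3 others with the steadiest difference from the members' mean. The members and lists were chosen with earlier results of these data known. Sequences and positions come from GRCh38 with RefSeq and GENCODE annotation. All replicate pairs differed beyond sampling noise in a chi-square test of their reads, so no library was counted as a duplicate.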

Additional observations from a re-analysis of the deposited data

How the results depend on the processing

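SNORD22 kept its direction and its call between EVs and cells in each line under all alternatives. Of the 1458 recomputed single-snoRNA values, 1359 kept their direction and side of the threshold, 59 gained a call, 38 lost one, and 2 reversed: SNORD26 between EVs and cells, at -0.67 over both lines and -0.83 in MDA-MB-231 with centring. The cause of the changes below was not tested. Members called lower in EVs numbered 2 over both lines and became 5 with centring, 4 with edgeR and 1 with limma without trend. They became 3 with quantile normalization, the replicate block or the added omission below. In PC3 the 0 lower became 3 with centring and 1 with edgeR, DESeq2 or the added omission below. In MDA-MB-231 the 2 lower became 4 with centring, 3 with edgeR, 1 without trend and 1 with that omission. For the difference between lines in this effect, the 0 members with the larger value in PC3 became 2 with centring and 1 with DESeq2. For ATPS against exoRNeasy the 0 lower became 1 with a pseudocount of 10, edgeR, DESeq2 or the omission, and 2 with quantile normalization. For UC against exoRNeasy the 1 higher became 0 with centring, quantile normalization, edgeR, DESeq2 or no trend, and the 2 lower became 1 without the filter, with edgeR or without trend. Between the lines in cells the 0 lower became 2 with centring and 1 with the stricter filter of 10 TPM, C/D box scaling, edgeR or DESeq2. In EVs the 0 lower became 1 with centring, quantile normalization, edgeR or DESeq2. The omission of MDA-MB-231 UC replicate 1 and cell replicate 2 together, the deepest EV and the shallowest cell library of that line, was chosen after seeing the data.

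Leaving out 1 library at a time gave 1 to 3 members lower in EVs over both lines, 0 to 1 lower in PC3, and 1 to 2 higher and 1 to 2 lower in MDA-MB-231. It gave 0 to 1 in each direction for the difference between lines in that effect, 0 to 1 lower for ATPS against exoRNeasy, 0 to 2 lower for UC against exoRNeasy, and 0 to 1 in each direction between the lines, in cells and in EVs. An arm left with 1 library was assumed to vary like the other groups. The shallow MDA-MB-231 cell replicate 2 limits every value that rests on low snoRNAs there.

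The replicate numbers were not taken as pairs. The deviations of same-numbered libraries correlated at -0.213 to 0.116 in PC3 and at 0.027 to 0.272 in MDA-MB-231, where all 6 pairs were positive. With the replicate block the calls between EVs and cells over both lines went from 136 and 23 to 138 and 31. With the block 1 member was lower in PC3 EVs (SNORD30, adjusted p = 0.0273, and 0.0375 over both lines), 1 had the larger effect in MDA-MB-231 (SNORD22, adjusted p = 0.0433), and 1 was higher and 1 lower in PC3 between the lines in EVs.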

Other observations

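SNORD22 was the only one of the 6 measured members of at least 100 bases, and C/D box snoRNAs were counted by length after its values were seen. RefSeq lengths were matched for 199 of the 212 tested (93.9%). In PC3, the 30 of at least 100 bases had a median log2 difference between EVs and cells of 1.11, with 12 higher and 0 lower by limma, and the 169 shorter ones a median of -0.26, with 19 higher and 7 lower. In MDA-MB-231 the medians were 2.63 and 0.49, with 17 higher and 0 lower among the long ones and 54 higher and 19 lower among the short ones. Between UC and exoRNeasy EVs, 1 of the long ones was higher after UC and 5 were lower (median -0.25). Of the short ones, 20 were higher and 5 lower (median 0.12). The long group includes SNORD22 itself, called higher in EVs of both lines, and several copies of SNORD3, which share sequence. These counts describe the libraries, and the part of length was not tested.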
